A study of Mus musculus and Homo sapiens with 16 samples.

Results

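The 35 genes described here are markers of blood vessels: 26 genes of endothelial cells, which line blood and lymph vessels, and 9 genes of mural cells, the pericytes and smooth muscle that wrap them. They were chosen by name, as genes known from vessels, with earlier results of these data known. All 35 were found by symbol among the 39179 gene identifiers of the count files. The series asks what KLF5, a DNA-binding regulator of epithelial genes with zinc fingers, does in mouse skin. RNA was measured in 10 libraries of C57BL/6 skin epithelium in 2 sets. The E17.5 set, from embryos, held 3 Klf5+/- and 3 Klf5-/- libraries of dispase-peeled, trypsin-dissociated epidermis sorted as DAPI-, CD45- and Integrin A6+ cells. A set titled HFD, an abbreviation its labels do not expand, held 2 Klf5+/- and 2 Klf5-/- libraries of peeled epidermis ground whole with no sort, and its labels give no age. The heterozygous libraries are the reference in both sets, so every comparison is between animals that all carry at least 1 mutant Klf5 allele. The sources used here give neither the driver of the deletion nor the deleted part of the gene. Lists of open chromatin (ATAC), histone H3K27ac and KLF5 peaks came from sorted E17.5 epithelium labelled wild type, 1 list for each, although the ATAC title carries the word Het.

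Endothelial cells sense growth factors through the VEGF receptors Kdr, Flt1 and Flt4 and the angiopoietin receptor Tek, hold to one another through Cdh5 and Cldn5 at their junctions, and are specified by transcription factors such as Erg and the Sox17 and Sox18 pair. Pericytes and vascular smooth muscle answer platelet-derived growth factor through Pdgfrb and contract with Acta2 and Myh11. The vessels of skin run in the dermis and in the fat and muscle beneath it. The epidermis itself holds none. Integrin A6, the marker of the E17.5 sort, is carried by basal keratinocytes and also by endothelial cells, so that gate alone does not exclude them.

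A RefSeq promoter was matched for 22 of the 35 genes. The promoters of 3 of these 22 overlapped a peak in E17.5 epithelium and are shown because they are the members' own start-site sequences that lie in open or acetylated chromatin of these cells. Each run is the 250 bases directly before a RefSeq start (GRCm38.p6), and capitals mark CACCC, the short core that KLF proteins bind, in either orientation (CACCC or GGGTG). The Kdr stretch (chr5:75978456-75978705, minus strand) and the Prox1 stretch (chr1:190170828-190171077, minus strand) overlapped an ATAC peak. The Heg1 stretch (chr16:33684216-33684465, plus strand) overlapped an H3K27ac peak.
Kdr: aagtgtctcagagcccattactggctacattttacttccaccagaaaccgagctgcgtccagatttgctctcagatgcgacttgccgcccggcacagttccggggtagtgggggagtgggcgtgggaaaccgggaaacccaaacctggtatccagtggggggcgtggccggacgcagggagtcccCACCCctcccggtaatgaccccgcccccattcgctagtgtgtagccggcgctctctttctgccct
Prox1: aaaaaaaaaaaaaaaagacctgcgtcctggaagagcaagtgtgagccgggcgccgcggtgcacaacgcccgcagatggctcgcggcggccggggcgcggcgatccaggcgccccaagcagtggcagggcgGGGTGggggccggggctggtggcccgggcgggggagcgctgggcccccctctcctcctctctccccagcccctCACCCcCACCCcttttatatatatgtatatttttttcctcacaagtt
Heg1: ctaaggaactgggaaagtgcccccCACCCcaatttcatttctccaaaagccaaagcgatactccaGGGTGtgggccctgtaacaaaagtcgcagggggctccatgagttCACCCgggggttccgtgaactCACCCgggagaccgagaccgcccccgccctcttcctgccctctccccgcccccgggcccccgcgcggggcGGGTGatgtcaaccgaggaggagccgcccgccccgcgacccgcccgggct
The core was present 1 time before Kdr, 3 times before Prox1 and 5 times before Heg1. Of 32851 mouse promoters of this length 52.0% held it, and 17 of the 27 promoters matched for 22 of the members did. A match describes the letters only, and no KLF5 peak overlapped any of these stretches.

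Libraries held 31819010 to 46445546 counts on genes, so that 3 counts stood for 0.0646 to 0.0943 CPM, counts scaled to library size. Klf5 itself had 162.6 to 198.6 CPM at E17.5 and was not lower in the HFD libraries labelled Klf5-/- (101.2 and 119.7 CPM) than in the Klf5+/- ones (62.8 and 42.8 CPM). Counts over the whole gene therefore do not check the genotype labels, and each direction below rests on them. The keratinocyte label was met in every library: 10 keratinocyte markers together reached 55944 to 96485 CPM at E17.5 and 26839 to 60040.4 CPM in the HFD set. The labels do not say whether replicates were separate animals, and the p-values then speak only of the scatter among these libraries.

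The sorted E17.5 libraries held almost no transcripts of most vessel genes, while both HFD Klf5+/- libraries held all of them. At 1 CPM or more in every Klf5+/- library, 7 of 35 members were present at E17.5 and 35 of 35 in the HFD set, beside 31.4% and 34.3% of all genes. The 7 were Heg1, Egfl7, Sema3g, Prox1, Cspg4, Tagln and Mcam. In the E17.5 Klf5-/- libraries 8 members reached that level, and in the HFD Klf5-/- libraries 25 did. The defining endothelial genes were near 0 at E17.5: Pecam1, the surface protein CD31, had 20, 14 and 35 counts in the Klf5+/- and 39, 41 and 37 in the Klf5-/- libraries. Cdh5, the cadherin of endothelial junctions, had 0, 1 and 12 against 0, 24 and 11 counts, and Sox17 had 0 counts in all 6 libraries. Robo4 had 1 count in 1 Klf5-/- library, Emcn 2 in another, and neither had any in the Klf5+/- libraries. At these depths a count of 0 allows up to 0.0646 to 0.0870 CPM a library, counting error only. In bulk RNA fewer cells of a type and less RNA per cell cannot be told apart, here and in every comparison below.

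A single gene carried most of the members' signal at E17.5. Mcam, an adhesion protein that marks mural and some endothelial cells and whose gene is also read in other cells, had 72.6 to 106.9 CPM across the 6 libraries and made up 63.2 to 73.6% of the members' summed CPM. Scaled to exon length as well as depth (RPKM, computed from the counts), its Klf5+/- level was 26.5 ± 4.55 (SD, n = 3). Next came Cspg4, the pericyte proteoglycan NG2, at 1.94 ± 0.84 RPKM, and no other member passed 1 RPKM there. In the HFD Klf5+/- libraries the order was different. The water channel gene Aqp1 was highest at 93.2 RPKM (SD 0.067, n = 2), followed by Cd34 at 61.7 ± 11.2, Acta2 at 51.1 ± 1.57, Tagln at 41.9 ± 3.39, Lyve1 at 40.5 ± 4.06 and Cldn5 at 40.0 ± 2.05 RPKM. The last 3 lay within their spread of one another. Mcam stood at 30.0 ± 0.162 RPKM. The heat map of levels shows a dark block over the 6 E17.5 libraries, broken by Mcam, Cspg4 and Heg1, and a bright block over the 2 HFD Klf5+/- libraries.

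**Figure D1:**
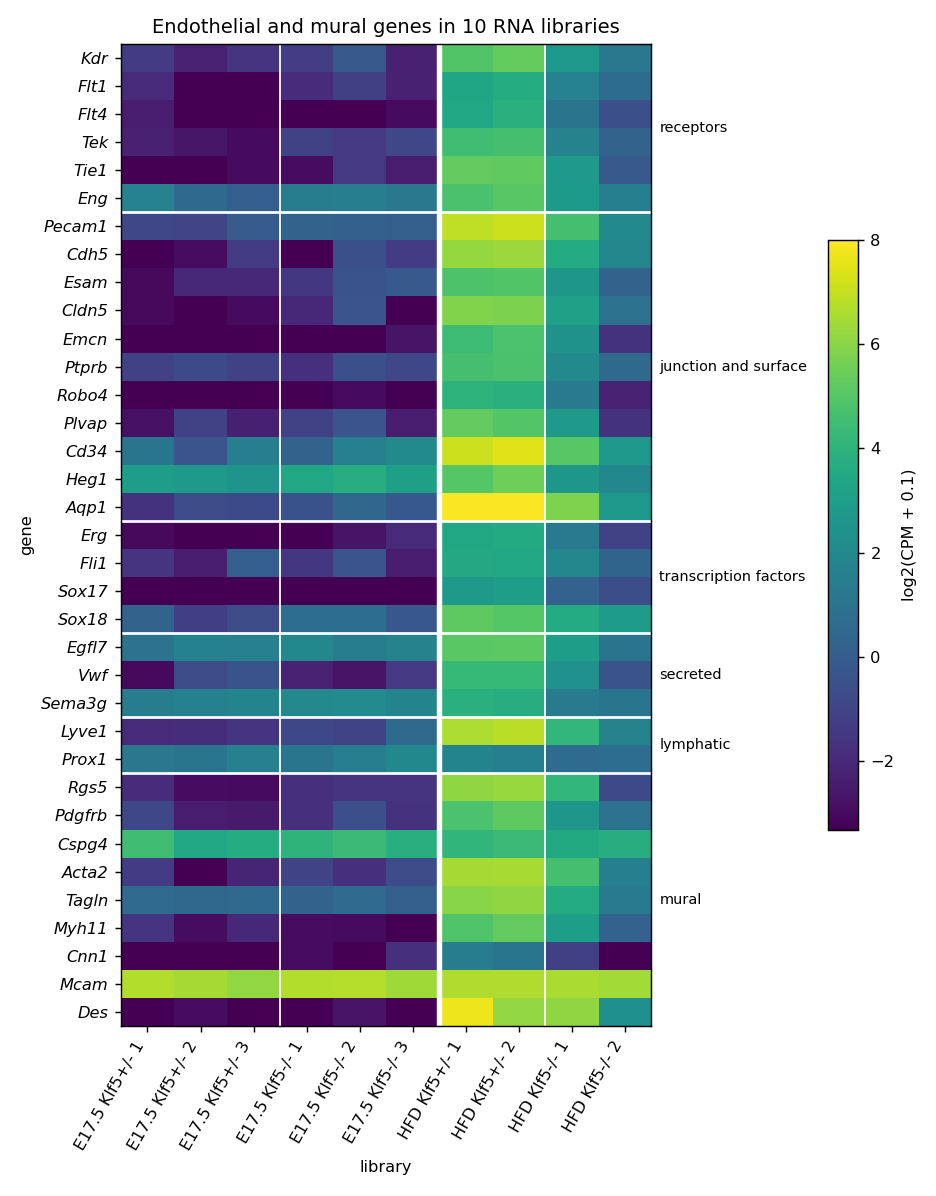
Level of each of the 35 genes (rows, by role) in each of the 10 RNA libraries (columns), as log2(CPM + 0.1) in colour. Mcam stays bright in every column, while Pecam1, Cdh5 and most others are dark in the 6 E17.5 libraries, brightest in the 2 HFD Klf5+/- libraries and dimmer in HFD Klf5-/- replicate 2 than in replicate 1.

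The first genotype comparison asked whether loss of Klf5 changed vessel transcripts in the sorted E17.5 epithelium. Of the 35 members, 20 had enough counts to be tested and none was called by edgeR's quasi-likelihood test at a Benjamini-Hochberg adjusted p under 0.05, as was true of all but 0.0861% of the 15092 genes tested. DESeq2 and limma-voom called none either. At an unadjusted p under 0.05, edgeR had 3 members, DESeq2 4 and limma-voom 5. The 3 were higher in the Klf5-/- libraries, where 3.78% of all genes were. The median log2 fold change over the 20 was 0.61, beside 0.01 over all genes, with 18 above 0 and 2 below, and in 5 all Klf5-/- libraries were above all Klf5+/- ones (6.63% of all genes). Members tested here are those with the most counts, so these counts describe 20 genes and not the list. Of the 3 at an unadjusted p under 0.05 by edgeR, Tek and Lyve1 reached the level of the low-count filter only in the Klf5-/- libraries. Their direction is therefore a description.

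Among the receptors, Tek, which binds the angiopoietins, had 5, 2 and 1 counts in the Klf5+/- and 13, 11 and 16 in the Klf5-/- libraries. The groups did not overlap, with a log2 fold change of 2.38 (SE 0.72, edgeR adjusted p = 0.236). Kdr, the main VEGF receptor of endothelium, had 14, 4 and 9 against 11, 32 and 4 counts, with Klf5-/- replicate 2 alone above the rest. Eng, a co-receptor for TGF-beta family ligands, had 147, 47 and 38 against 90, 112 and 82 counts and overlapped. Flt1 and Flt4 had at most 14 and 4 counts in any library.

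Of the junction and surface genes, Heg1, a receptor of the endothelial junction that is also read in epithelia, had 8.05, 6.67 and 5.72 CPM in the Klf5+/- and 10.9, 13.2 and 8.49 CPM in the Klf5-/- libraries. All 3 Klf5-/- values lay above all 3 Klf5+/- values, with a log2 fold change of 0.67 (SE 0.20, edgeR adjusted p = 0.221). Without Klf5-/- replicate 3 it was the only member called, at an adjusted p of 0.0390, in a fit that called 513 of 15486 genes against 13 with all 6 libraries. Aqp1 had 10, 17 and 20 against 22, 50 and 29 counts, which also did not overlap (1.12, SE 0.51, edgeR adjusted p = 0.499). Esam, an adhesion molecule of endothelium and platelets, had 1, 5 and 6 against 9, 27 and 30 counts and was too low to be tested. Cldn5 had 1, 0 and 1 against 5, 28 and 0 counts, so that 1 library held nearly all of them. Ptprb, the phosphatase that acts on Tek, had 17, 16 and 15 against 7, 24 and 17 counts and showed no direction.

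Lyve1, the hyaluronan receptor of lymphatic endothelium that some macrophages share, had 7, 6 and 9 against 16, 16 and 52 counts. The groups did not overlap (log2 fold change 2.00, SE 0.64, edgeR adjusted p = 0.262), and Klf5-/- replicate 3 was far above the others. Prox1, the lymphatic fate regulator, had 98, 68 and 119 against 70, 112 and 144 counts and overlapped. The secreted factors Egfl7 (88, 102 and 120 against 135, 105 and 122 counts) and Sema3g (122, 102 and 137 against 137, 177 and 124 counts) overlapped as well. Vwf, the clotting factor stored in endothelium, lay on the other side, with 1, 17 and 27 against 4, 2 and 10 counts (-1.44, SE 0.99, edgeR adjusted p = 0.746). The mural genes shared no direction. Of the 9, 4 were tested, with 3 above 0, 1 below and 0 at an unadjusted p under 0.05 by edgeR. Mcam had 102.9, 89.6 and 72.6 CPM in the Klf5+/- and 102.2, 106.9 and 84.0 CPM in the Klf5-/- libraries, and Tagln 67, 42 and 56 against 39, 60 and 36 counts. Rgs5 and Myh11 were too low to be tested, and their CPM did not overlap. Rgs5 was higher in the Klf5-/- libraries (8, 1 and 1 against 7, 9 and 9 counts) and Myh11 lower (11, 1 and 6 against 1, 1 and 0).

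Summed over the 26 endothelial members, the Klf5+/- libraries held 23.2, 20.2 and 23.5 CPM and the Klf5-/- libraries 30.3, 38.5 and 32.0 CPM. The 2 groups did not overlap in this sum. A list of 27 other endothelial genes did not share this: it summed to 115, 110.0 and 85.7 against 86.1, 94.8 and 97.0 CPM, and its 13 tested genes had a median log2 fold change of 0.04, with 7 above 0 and 6 below. The sum of the 19 other mural genes was lower without overlap, at 409, 461 and 399 against 281, 309 and 354 CPM. Of the 10 tested, 1 was lower at an unadjusted p under 0.05 by edgeR and 0 were called. The median log2 fold change of the 10 was 0.21, with 6 above 0 and 4 below, so the sum does not stand for most of them. The 12 fibroblast markers lay on the higher side, at 639, 666 and 741 against 813, 855 and 839.7 CPM, with 6 of the 10 tested higher at an unadjusted p under 0.05 by edgeR and 0 called. The 8 red-cell markers ran from 15.9 to 1124 CPM in the Klf5+/- and from 267 to 2736 CPM in the Klf5-/- libraries. The sum of the 10 keratinocyte markers was lower without overlap, at 90948, 96485 and 77911 against 63899, 55944 and 71811 CPM. Of the 10, 3 were lower at an unadjusted p under 0.05 by edgeR and 0 were called. Their median log2 fold change was -0.06, with 4 above 0 and 6 below. The part of other cells in these sums was not tested.

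The second comparison, between genotypes in the unsorted HFD epidermis, gave lower values of every vessel gene in the Klf5-/- libraries. All 35 members were tested, all 35 had both Klf5-/- libraries below both Klf5+/- libraries (32.7% of all genes did), and their median log2 fold change was -3.01 beside -0.01 over all 15848 genes. The low-count filter level was passed in both Klf5-/- libraries by 31 of them, and Emcn, Robo4, Plvap and Cnn1 passed through the Klf5+/- libraries. By edgeR's quasi-likelihood test 10 members fell at an adjusted p under 0.05, where 4.02% of all genes did, and none rose. The 10 were 5 receptors, 2 junction and surface genes, 2 transcription factors and the secreted Sema3g, with edgeR adjusted p from 0.0337 to 0.0473. At an unadjusted p under 0.05 there were 27, beside 16.4% of all genes.

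The number called depended on the libraries and the tool. Leaving out 1 library left its genotype with 1, which the test took to vary like the other genotype's. Few or no calls were left without either Klf5+/- replicate, and more were made without either Klf5-/- replicate. This held over all genes as over the members. The members' median log2 fold change was -3.16 without Klf5+/- replicate 1 and -2.90 without Klf5+/- replicate 2. It was -4.62 without Klf5-/- replicate 1 and -2.25 without Klf5-/- replicate 2. DESeq2 called 23 and limma-voom 30, including the same 10 in each case, and all 35 log2 fold changes stayed below 0 in each of these fits.

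Both Klf5-/- libraries were low, but by different amounts. Replicate 1 held 20.4% of the Klf5+/- mean at the median member (13.4 to 95.3%), and replicate 2 held 3.98% (0 to 86.0%). At the median gene of all those tested the values were 97.3% and 98.0%. Replicate 2 was below replicate 1 in 33 of 35 members, the exceptions being Prox1 and Cspg4. This gap between the 2 Klf5-/- libraries entered the spread used by the test, together with the gap between the 2 Klf5+/- libraries.

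**Figure D2:**
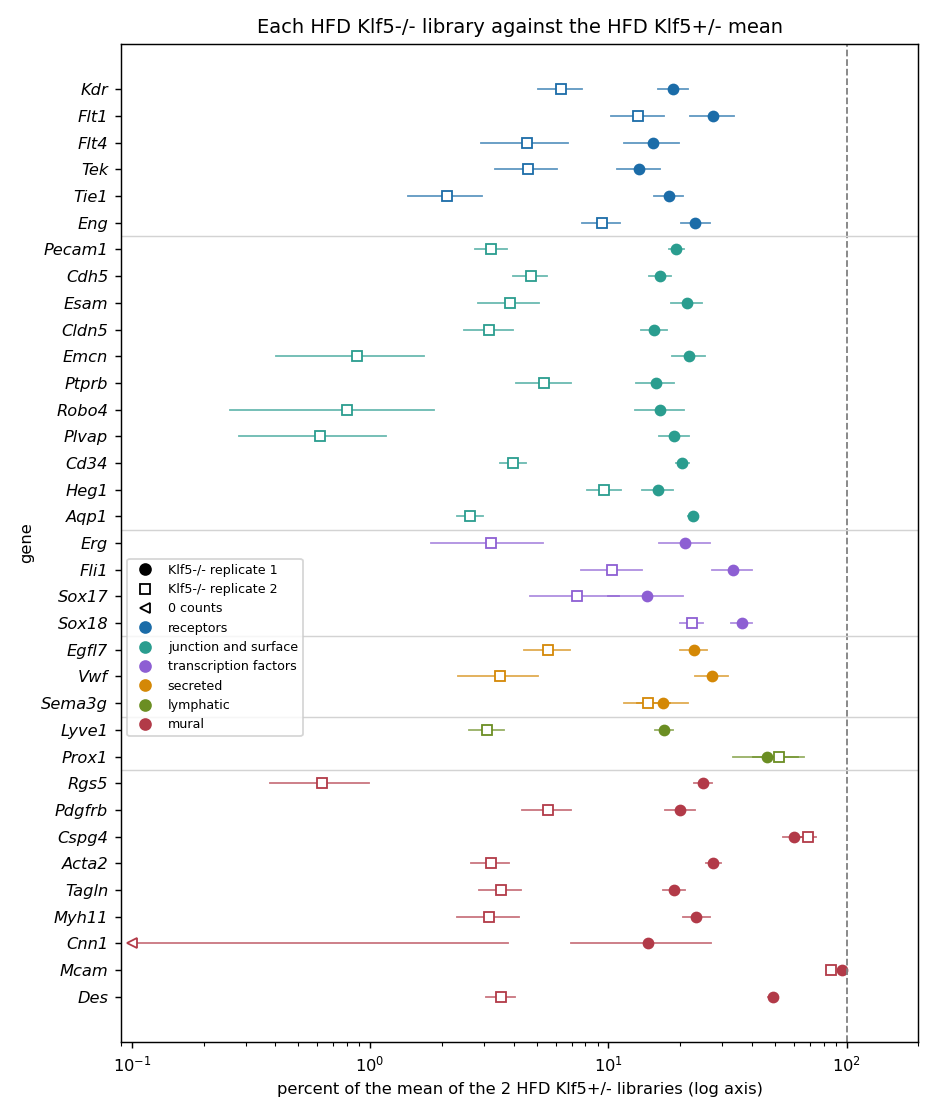
Level of each gene in HFD Klf5-/- replicate 1 (filled circles) and replicate 2 (open squares) as a percent of the mean of the 2 HFD Klf5+/- libraries, on a log axis. Lines are exact 95% Poisson intervals of the Klf5-/- count alone and cover counting error only. The circles have a median of 20.4% and the squares of 3.98%, while Mcam, Cspg4 and Prox1 sit to the right with both symbols close together.

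Of the 6 receptors, 5 were called lower. Kdr (ENSMUSG00000062960, mm10 chromosome 5, 75932827 to 75978458, minus strand) had 30.4 and 39.4 CPM in the Klf5+/- and 6.51 and 2.2 CPM in the Klf5-/- libraries. It fell by 3.01 on the log2 scale (SE 0.55, edgeR adjusted p = 0.0473). Of the 10 called members, Kdr was the one not called with the replicate number as a block (edgeR adjusted p = 0.0699) or with no low-count filter (edgeR adjusted p = 0.0781). Flt1, the decoy receptor that holds VEGF away from Kdr, had 9.88 and 12.9 against 3.12 and 1.52 CPM (-2.30, SE 0.43, edgeR adjusted p = 0.0418). In both genes replicate 2 of the Klf5-/- group was the lower one. Flt4, the receptor of lymphatic growth, had 11.1 and 14.4 against 1.95 and 0.580 CPM (-3.35, SE 0.60, edgeR adjusted p = 0.0415). Tek (ENSMUSG00000006386, chromosome 4, 94739289 to 94874976) had 23 and 25.5 against 3.26 and 1.11 CPM, the largest change of the 6 (-3.49, SE 0.52, edgeR adjusted p = 0.0371). Eng had 26.7 and 33.7 against 6.99 and 2.83 CPM (-2.63, SE 0.46, edgeR adjusted p = 0.0415). Its gene overlaps Fpgs and Ak1 on the map, as Egfl7 overlaps Agpat2, Tagln Pcsk7 and Plvap Gtpbp3. Another 7 members (Ptprb, Cd34, Heg1, Fli1, Prox1, Mcam and Des) overlap gene models with provisional names. Whether counting used strand is not given, so reads of these 11 members may be shared with their neighbours. Tie1, the orphan partner of Tek, had 38.3 and 37.5 against 6.78 and 0.797 CPM and was not called (-3.34, SE 1.07, edgeR adjusted p = 0.157).

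Junction and surface genes had folds as large, and 2 of 11 were called. Ptprb fell from 25.4 and 26.6 to 4.11 and 1.40 CPM (log2 change -3.25, SE 0.52, edgeR adjusted p = 0.0390). Heg1 (ENSMUSG00000075254, chromosome 16, 33684466 to 33771576) fell from 32.1 and 45.8 to 6.27 and 3.74 CPM (-2.96, SE 0.34, edgeR adjusted p = 0.0337). In both, the 2 Klf5-/- libraries were closer to each other than in the rest of this group. Pecam1 (ENSMUSG00000020717, chromosome 11, 106654217 to 106750628) had 119 and 140.1 against 25.0 and 4.18 CPM, and the gap between its Klf5-/- libraries went with an SE of 0.96 on a log2 fold change of -3.16 (edgeR adjusted p = 0.145). Aqp1 showed the same shape at a higher level, with 244 and 245 against 55.3 and 6.42 CPM (-2.99, SE 1.12, edgeR adjusted p = 0.202). Cd34, a surface protein of endothelium that hair follicle stem cells and some fibroblasts also carry, had 141 and 182 against 33.0 and 6.42 CPM. Esam had 28.1 and 30.8 against 6.27 and 1.14 CPM, and Cldn5, the claudin that seals endothelial junctions, had 58.5 and 54.4 against 8.77 and 1.79 CPM. None of these 3 was called (edgeR adjusted p = 0.139, 0.117 and 0.0923). Cdh5, Emcn, Robo4 and Plvap had log2 fold changes of -3.25, -3.17, -3.58 and -3.39. Of the 4, Emcn, Robo4 and Plvap had 9, 5 and 9 counts left in Klf5-/- replicate 2, under 1% of the Klf5+/- mean.

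All 4 transcription factors were lower and 2 were called. Sox17 (ENSMUSG00000025902, chromosome 1, 4490928 to 4496413), a factor of arterial endothelium, fell from 6.92 and 8.16 to 1.10 and 0.555 CPM (log2 change -3.20, SE 0.46, edgeR adjusted p = 0.0339). Sox18, its relative in vessels and the hair follicle's dermal papilla, fell less, from 36.0 and 32.2 to 12.3 and 7.63 CPM (-1.77, SE 0.28, edgeR adjusted p = 0.0371). It kept 36.2% and 22.4% of the Klf5+/- mean, more than any other called member. Erg and Fli1, ETS factors of endothelium, had log2 fold changes of -3.07 and -2.21 and were not called. Fli1 is also read in blood cells and was at 33.2% and 10.4% of the Klf5+/- mean.

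Among the secreted factors Sema3g (ENSMUSG00000021904, chromosome 14, 31217860 to 31230350), a semaphorin of arterial endothelium, fell from 14.4 and 13.1 to 2.33 and 2.00 CPM (log2 change -2.66, SE 0.28, edgeR adjusted p = 0.0337). Its 2 Klf5-/- libraries lay close together, at 17.0% and 14.6% of the Klf5+/- mean. Egfl7, a matrix protein that guides vessel tubes, had 34.3 and 35.2 against 7.95 and 1.93 CPM (-2.83, SE 0.70, edgeR adjusted p = 0.0900). Vwf had 19.2 and 19.4 against 5.24 and 0.676 CPM (-2.73, SE 0.98, edgeR adjusted p = 0.178). The lymphatic pair split. Lyve1 had 97.9 and 113 against 18.0 and 3.26 CPM (-3.32, SE 0.92, edgeR adjusted p = 0.126). Prox1 had 3.36 and 2.85 against 1.44 and 1.62 CPM (-1.02, SE 0.41, edgeR adjusted p = 0.173).

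None of the 9 mural genes was called, and 5 were lower at an unadjusted p under 0.05. Pdgfrb had 27.3 and 36.2 against 6.34 and 1.76 CPM (log2 change -2.98, SE 0.65, edgeR adjusted p = 0.0686). Acta2, the smooth muscle actin, had 88.6 and 92.5 against 25.0 and 2.90 CPM, and how reads that match several actin genes were counted is not given. Tagln, an actin-binding protein of smooth muscle, had 62.5 and 70.1 against 12.5 and 2.34 CPM (-3.17, SE 0.88, edgeR adjusted p = 0.126). Cnn1, a calponin of the same cells, had 109 and 73 counts against 10 and 0, the only member with 0 counts in an HFD library, which allows up to 3.79% of its Klf5+/- mean (exact Poisson interval). Rgs5, a pericyte gene, and Myh11, the smooth muscle myosin, were at 0.631% and 3.16% of the Klf5+/- mean in replicate 2. Des, shared with skeletal muscle, varied within the Klf5+/- pair itself, at 209 and 71.7 CPM.

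Mcam and Cspg4 had the smallest changes of the 35 in the HFD set. Mcam (ENSMUSG00000032135, chromosome 9, 44134469 to 44142727) had 99.6 and 100.4 against 95.3 and 86.0 CPM (log2 change -0.14, SE 0.16, edgeR adjusted p = 0.613), so the Klf5-/- libraries kept 95.3% and 86.0% of its Klf5+/- level. Cspg4 had 17.3 and 21.3 against 11.6 and 13.2 CPM (-0.63, SE 0.23, edgeR adjusted p = 0.143). These 2 and Prox1 are also 3 of the 7 members at 1 CPM or more in every sorted E17.5 Klf5+/- library. The rest of the 7, Heg1, Egfl7, Sema3g and Tagln, had HFD log2 fold changes of -2.96, -2.83, -2.66 and -3.17. Presence at E17.5 therefore did not go with a small HFD change in all 7. Because the other members were low, Mcam made up 5.60% and 5.59% of the members' summed CPM in the Klf5+/- libraries but 19.3% and 50.5% in the Klf5-/- ones.

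**Figure D3:**
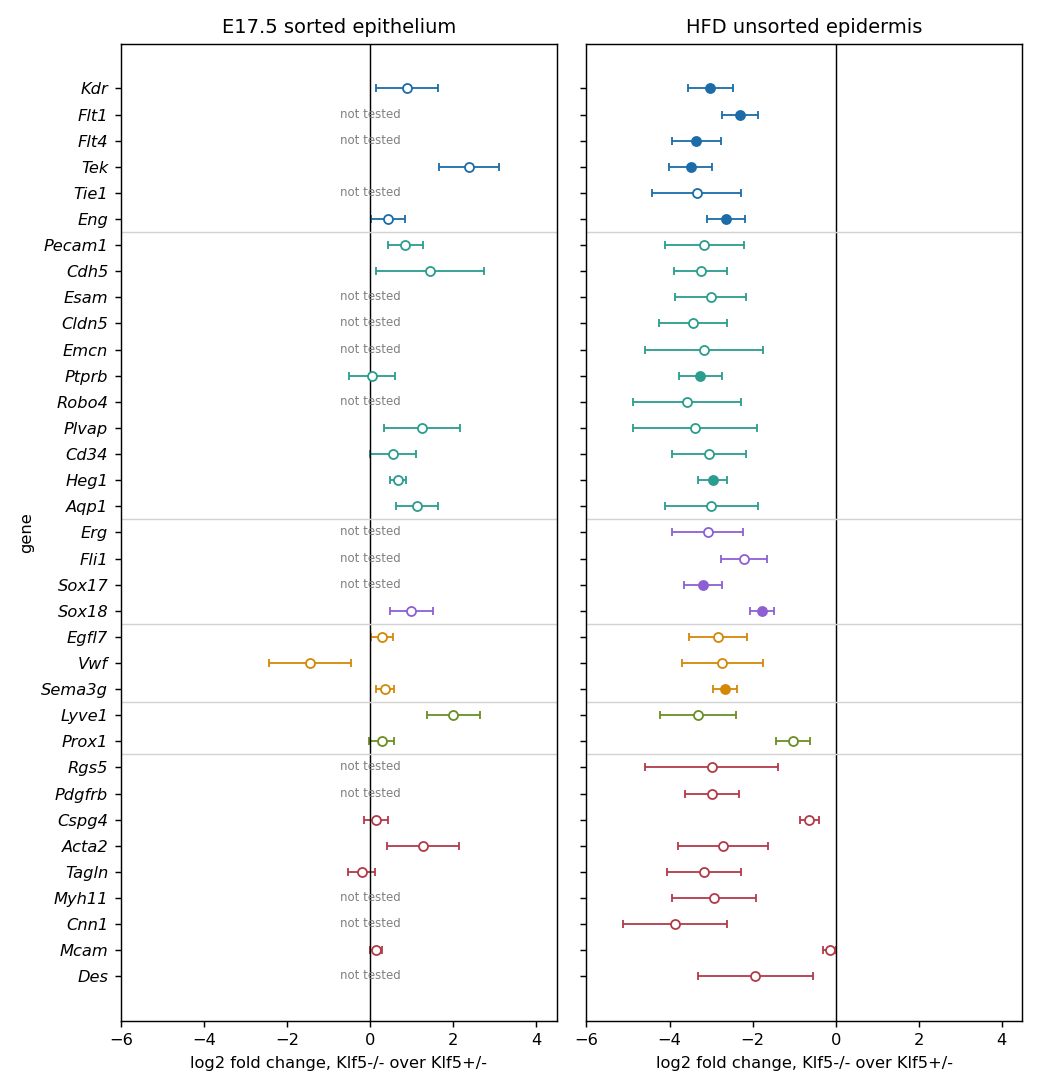
Log2 fold change of Klf5-/- over Klf5+/- for each gene (rows) at E17.5 (left) and in the HFD set (right), with bars of 1 SE and filled points where the edgeR adjusted p was under 0.05. The 10 filled points are all on the right panel and all left of 0, and 15 genes on the left panel were too low to be tested.

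Further genes of the vessel signalling system gave the setting. Of 16 other vascular receptors, 5 fell in the HFD Klf5-/- libraries and none rose (median -2.08). Plxnd1, the semaphorin receptor of endothelium, fell from 44.5 and 49.2 to 12.9 and 8.94 CPM (log2 change -2.10, SE 0.25, edgeR adjusted p = 0.0337). Notch4 and its ligand Dll4 fell by 2.72 and 3.50 on the log2 scale. Ephb4 and Efnb2, a receptor and ligand pair that keratinocytes also carry, had differences of -0.32 and 0.07 and were at 118 and 92.8 CPM in the sorted E17.5 Klf5+/- libraries. Of 25 other endothelial genes tested, 6 fell and none rose (median -2.72), among them Nos3, the endothelial nitric oxide synthase (8.49 and 12.8 against 2.12 and 1.11 CPM). Of 17 other mural genes tested, 5 fell and 1 rose (median -2.12). Abcc9, a pericyte channel subunit, fell from 11.1 and 11.5 to 1.68 and 1.06 CPM. The riser was Ndufa4l2, which had 274 CPM in the sorted E17.5 Klf5+/- libraries and went from 53.9 and 45.2 to 136 and 148 CPM in the HFD set (1.52, SE 0.18, edgeR adjusted p = 0.0337).

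Ligands of these receptors come in part from the epithelium itself. Of 15 vascular ligands, 2 fell and none rose in the HFD set (median -0.68). Angpt2, which endothelial cells make as a partner of Tek, fell from 10.7 and 13.6 to 3.77 and 2.75 CPM (log2 change -1.90, SE 0.31, edgeR adjusted p = 0.0380). Vegfa, the ligand of Kdr that keratinocytes secrete, had 15.0 and 25.0 against 10.6 and 22.0 CPM and overlapped. Pdgfa, which acts on fibroblasts, had 100.2 and 96.1 against 111 and 126 CPM. In the sorted E17.5 epithelium both were well read, at 83.2 ± 11.4 and 191 ± 28.6 CPM in the Klf5+/- libraries (SD, n = 3), and differed by -0.12 and 0.04. None of the 4 lists had a gene called by edgeR at E17.5, where each list had 1 member at an unadjusted p under 0.05.

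Markers of several, but not all, other cell types were lower with the vessel genes in the HFD set. The 26 endothelial members summed to 1172 and 1286 CPM in the Klf5+/- and 249 and 57.5 CPM in the Klf5-/- libraries. The 9 mural members summed to 606 and 509.9 against 246 and 113 CPM. Fibroblast markers had the same order of libraries, at 16386 and 19859 against 4614 and 800.3 CPM, with 12 of 12 lower and 2 called (median -2.88). Skeletal muscle markers ran 3076 and 873 against 964 and 100.3 CPM, with none called. Red-cell markers had 899 and 946 against 323 and 417 CPM, and fat-cell markers 194 and 417 against 43.1 and 156 CPM. Of these, 4 of 8 red-cell and 2 of 7 fat-cell markers tested were called lower. In these 2 lists Klf5-/- replicate 2 was above replicate 1. Immune markers had 262 and 297 against 167 and 109 CPM. Keratinocyte markers went the other way, from 32478 and 26839 to 58123 and 60040.4 CPM, with 10 of 10 above 0 and 1, Krt1, called. The part of these cells in the vessel result was not tested.

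**Figure D4:**
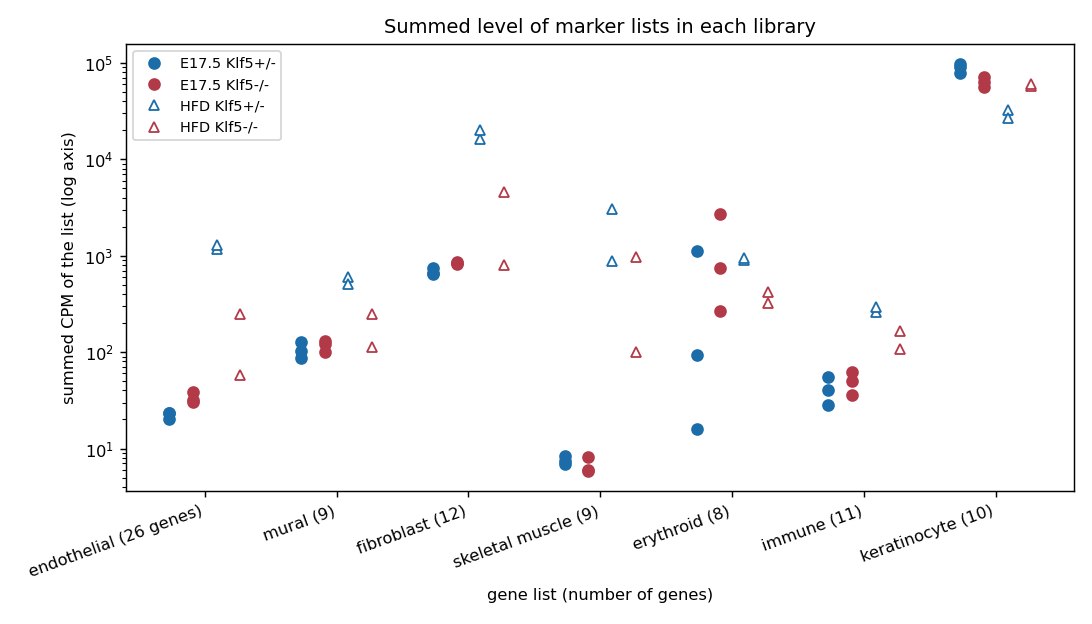
Summed CPM of each marker list (log axis) in each library, with E17.5 Klf5+/-, E17.5 Klf5-/-, HFD Klf5+/- and HFD Klf5-/- libraries as separate symbols. Endothelial and fibroblast sums share the order of the 4 HFD libraries, from 1286 and 19859 CPM at the top to 57.5 and 800.3 CPM in Klf5-/- replicate 2, and the keratinocyte sums lie in the opposite order of genotypes.

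The genotype effect in the HFD set was then compared directly with that at E17.5, as a contrast in 1 edgeR fit of all 10 libraries. For 14 of 35 members the HFD effect was lower at an adjusted p under 0.05, where 7.61% of 17260 genes were, and for none was it higher. Of the 14, Flt1, Esam and Cldn5 were too low to be tested at E17.5 alone and entered through the fit of all libraries, so the count is a description. By role they were 4 of 6 receptors, 5 of 11 junction and surface genes, 1 of 4 transcription factors, 2 of 3 secreted factors, 1 of 2 lymphatic genes and 1 of 9 mural genes. Heg1, read well in both sets, had a difference of -3.63 (SE 0.38, edgeR adjusted p = 0.00254), from an effect of 0.67 at E17.5 to -2.96 in the HFD set. Sema3g had -3.01 (SE 0.34) and Tek -5.84 (SE 0.74), both with an edgeR adjusted p of 0.00267. For most others the E17.5 arm held few counts. Among the 14 called, SEs reached 1.98 in Cldn5, and some members not called had larger ones, such as 5.35 in Emcn and 7.33 in Des. Sox17, with 0 counts in every E17.5 library, had an SE of 5177, so its difference could not be estimated. Mcam, Cspg4 and Prox1 had differences of -0.28, -0.76 and -1.29 and were not called. With 1 E17.5 library left out, 8 to 12 members were called, beside 732 to 1221 genes lower over all. With all 10 libraries 1313 genes were lower. The member count was 8 without E17.5 Klf5+/- replicate 2 or 3, and 9 without E17.5 Klf5-/- replicate 1 or 2. Leaving out an HFD library left 1 in its group. Fewer members, and fewer genes over all, were called without either HFD Klf5+/- library. The members' median difference was -3.84 and -3.42 without HFD Klf5+/- replicate 1 and 2. It was -4.84 and -3.05 without HFD Klf5-/- replicate 1 and 2.

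Between the heterozygous libraries of the 2 sets, every member was higher in the HFD set. Differences past an adjusted p of 0.05 were found for 33 of 35, where 32.1% of all genes were higher, and the exceptions were Prox1 and Cspg4. Only 20 of the 35 members had enough counts to be tested at E17.5 alone, so the count is a description. On a scale fitted to all 10 libraries, Mcam was 1.46, Cspg4 1.59 and Prox1 1.70 times as high. Sema3g was 5.85 and Heg1 7.33 times as high. Genes near 0 at E17.5 lay far beyond: Pecam1 was 292 and Aqp1 776 times as high. Emcn was at least 415-fold higher and Sox17 at least 127-fold higher. The floor for these was 3 counts in each of the 3 E17.5 Klf5+/- libraries, where all were at 0. Sort, preparation and kit differ together between the sets, the age of the HFD animals is not given and HFD is not expanded. The parts of all these in the difference between the sets cannot be told apart.

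The peak lists show the chromatin of these genes in sorted E17.5 epithelium. A peak within 1 kb of the gene start was found for 12 of 35 members in the ATAC list (34.3%), beside 58.0% of 19709 protein-coding genes. The 12 were Kdr, Flt4, Tek, Esam, Cldn5, Ptprb, Cd34, Erg, Sox18, Prox1, Acta2 and Tagln. An H3K27ac peak, a mark of active promoters and enhancers, lay at the start of 2 members, Heg1 and Mcam (5.71%, beside 40.1%). A KLF5 peak lay at the start of none (beside 13.0%). Within the gene or 1 kb upstream of it, 23 members held an ATAC peak, 7 an H3K27ac peak and 5 a KLF5 peak. The 5 were Pecam1, Ptprb, Vwf, Cspg4 and Mcam. The share of all genes with such peaks was not computed, so these counts have no background beside them.

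Expression class sets what these shares can be read against. Of the 26 members with a mean below 1 CPM at E17.5, 9 had an ATAC peak at the start and none had H3K27ac or KLF5, and of coding genes below 1 CPM 19.6%, 3.47% and 1.21% had them. Of the 9 members at 1 CPM or more, 3 had an ATAC peak, beside 86.7% of coding genes at that level. Heg1 had its H3K27ac peak just before the start with 3.56-fold enrichment (the authors' value) and no ATAC peak at its start. Mcam, the member with the most RNA, had an H3K27ac peak from 570 bases inside the gene, an ATAC peak at 1820 bases and the nearest KLF5 peak of any member at 1633 bases. Widening the window to 5 kb gave 18, 2 and 1 members for ATAC, H3K27ac and KLF5, the last being Mcam. Each list is 1 sample, so these counts have no replicate check.

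**Figure D5:**
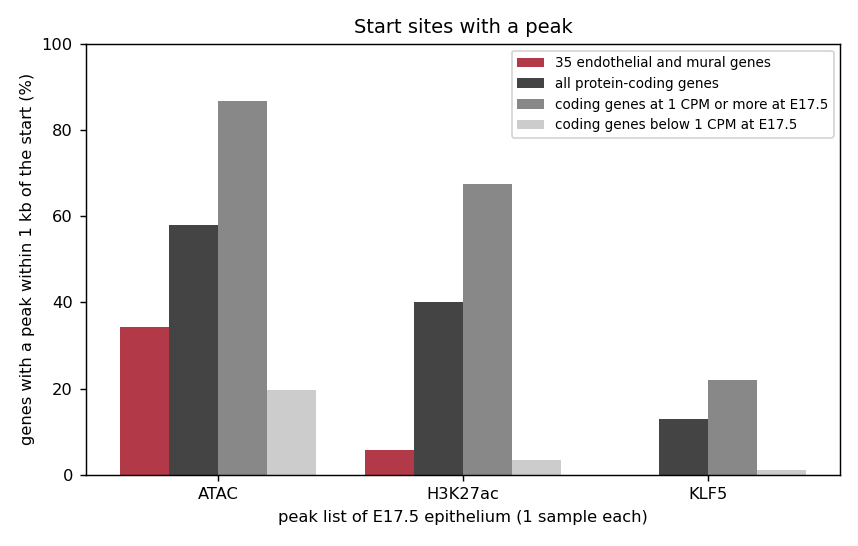
Percent of genes with a peak within 1 kb of the start in the E17.5 ATAC, H3K27ac and KLF5 lists, for the 35 genes, all protein-coding genes, and coding genes at or above and below 1 CPM at E17.5. The 35 genes stand at 34.3%, 5.71% and 0%, lower than all coding genes in each list.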

How the data were processed

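RNA libraries came as whole-number read counts for each Ensembl gene, which the authors deposited; STAR 2.6.0b and HTSeq on mm10 (GRCm38) are named in the submitters' processing notes, and whether counting used strand is not given in the sources at hand. RPKM values deposited with the HFD counts equalled counts over exon length and whole-file total, to a relative 7.6e-14, and entered no test; RPKM printed here were computed from the counts. Symbols, coordinates and exon lengths came from the HFD files. Reads on no gene (13.4 to 16.9%) stayed out. The E17.5 peak lists were made with MACS2, per the submitters' processing notes, and their fold enrichment, a ratio, and −log10 p and q values are the authors' deposited values; a peak's score was not used. Promoters are RefSeq's (GRCm38.p6).

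Groups came from the genotype labels and titles. The 2 sets had separate fits in edgeR 4.0.16 (R 4.3.3), with TMM factors, filterByExpr on groups at its minimum count of 10, and the robust quasi-likelihood test (Benjamini-Hochberg adjustment over all genes tested, threshold 0.05). An SE is the log2 fold change divided by the square root of F. CPM are TMM-scaled within a set. The difference of effects and the comparison of the sets were contrasts in 1 fit of all 10 libraries. DESeq2 1.42.0, limma-voom (limma 3.58.1), library totals, other filters, each library left out and the replicate number as a block were alternatives, and the scripts were tested on simulated counts. Peaks counted when they overlapped 1000 bases either side of a gene start. The members and lists were chosen with earlier results of these data known. Values printed for single members follow a rule: those called in a genotype comparison or in the difference of effects, the highest per length in each role group and set, and the 2 with the lowest p of each role group and comparison. Other members are named where a count or a level is described, chosen after their values were seen. The HaCaT peak lists were not used here.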

Additional observations from a re-analysis of the deposited data

Results flagged for a closer look

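The genotype effect differed between the HFD and the E17.5 set in 14 members, by edgeR's test of the difference itself in the fit of all 10 libraries. Each value is the HFD minus the E17.5 log2 fold change, and all 14 are below 0. In 4 receptors it was -5.84 for Tek, -4.11 for Flt1, -3.88 for Kdr and -3.05 for Eng (edgeR adjusted p 0.00267, 0.0354, 0.0261 and 0.0171). In 5 junction and surface genes it was -7.28 for Cldn5, -5.47 for Esam, -4.0 for Pecam1, -3.63 for Heg1 and -3.30 for Ptprb (edgeR adjusted p 0.0478, 0.0138, 0.0427, 0.00254 and 0.0104). Flt1, Esam and Cldn5 were too low to be tested at E17.5 alone and are included because the fit of all libraries kept them. In the transcription factor Sox18 it was -2.74 (edgeR adjusted p 0.0175). In the secreted factors Egfl7 and Sema3g it was -3.11 and -3.01 (edgeR adjusted p 0.0149 and 0.00267), in the lymphatic gene Lyve1 -5.31 (0.0317) and in the mural gene Tagln -2.96 (0.0411).

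Fibroblast markers moved with these genes: 6 of the 12 had a lower HFD effect by the same test, with a median difference of -4.19 beside -3.63 over the 35 members. The part of other cells in these differences was not tested. Groups of 2 or 3 libraries are too small for a test of single outlying libraries, so none was made. Fits with each library left out are given with the genotype comparisons and below.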

How the results depend on the processing

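Among all settings run, no called member changed sign. The count of members called at E17.5 stayed at 0 except without Klf5-/- replicate 3, so that leaving out each library gave 0 to 1. In the HFD set, where 10 were called, DESeq2 gave 23, limma-voom 30 and the fit of all 10 libraries 23; library totals gave 11 and no filter or a mean of 1 CPM 10 each. Leaving out each library gave 0 to 31. For the difference of effects, where 14 were called, analysis with no low-count filter gave 9, and leaving out each library gave 7 to 26; the other settings gave 10 to 19. The comparison of the heterozygous libraries gave 31 to 34 in every setting. With a replicate block, 0 members were called at E17.5, 10 in the HFD set (9 of them the same, without Kdr), 10 for the difference and 31 between the sets. Same-numbered libraries correlated at 0.068, -0.13 and 0.28 at E17.5, where libraries of unlike number reached 0.33. In the HFD set same-numbered libraries correlated at 0.22 and the others at -0.22. Groups of 2 force such mirror values, so the HFD value cannot decide on a pairing. Whether same-numbered libraries were paired is left unsettled. Raising the minimum to 2 CPM left 15 of the 25 members in the HFD Klf5-/- libraries. Of members with peaks at the start, 5 remained for ATAC at a −log10 q of at least 5, 1 for H3K27ac when the summit had to lie within 1 kb, and KLF5 gave 1 within 5 kb. The cause of these changes was not tested. Scaling on library totals moved the median of all HFD genes to -0.23 and the members' median to -3.24. It gave 138 genes higher and 1202 lower, against 235 and 637 with TMM. Over all genes at E17.5, 13 were called with TMM, 461 by DESeq2, 6 on totals, 0 by limma-voom, 237 with no filter, 2 at 1 CPM and 42 with the block. In the HFD set the corresponding counts were 872, 2906, 1340, 1942, 2396, and 1520 with the block. At E17.5 15 members were too low to test at a depth of 34486898 to 46445546 counts on genes a library.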

Other observations

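Pigment cell markers gave values of another kind in the HFD set. Of 5 melanocyte markers none was called by edgeR's quasi-likelihood test at an adjusted p under 0.05, 1 was lower at an unadjusted p under 0.05, and their median log2 fold change was -0.10. Dct, an enzyme of melanin synthesis, had 110.4 and 83.1 against 132 and 63.4 CPM, and the genotypes overlapped. It was well read in the sorted E17.5 libraries, at 192 ± 4.08 CPM in the Klf5+/- group (SD, n = 3).

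Among 10 immune markers tested in the HFD set 2 fell, with a median of -0.36. Mrc1, a receptor of dermal macrophages, fell from 93.9 and 123 to 29.0 and 12.7 CPM (-2.38, edgeR adjusted p = 0.0473). Lyz2 fell from 47.2 and 37.7 to 15.0 and 8.31 CPM (-1.87, edgeR adjusted p = 0.0393). Ptprc, the CD45 gene that all leukocytes share, had 14.0 and 14.5 against 16.5 and 13.1 CPM and was not called.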
